A study of Mus musculus with 15 samples.

Results

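In the developing mouse retina, 836 regions carried a called peak of the transcription factor NRL at postnatal days 4, 10 and 28 (P4, P10 and P28) and none at postnatal day 2 (P2). They are the rows of the authors' table of 8996 NRL peaks that overlapped by at least 1 bp a peak of each of the P4, P10 and P28 lists and no peak of the P2 list, and they make up 9.29% of that table. The members were chosen by the authors' peak calls at the 4 ages, which are measured values, so their levels against P2 are given below as a description only. The rule also used the calls at P4, P10 and P28: rows too low for a call at any of these ages could not be members. Counts, shares and medians over members in the comparisons of those ages are therefore descriptions too, and where they stand beside those of all peaks or of other groups nothing is read from the difference. They were set beside 667 rows called at all 4 ages and 1052 rows called at P10 and P28 only. The data are CUT&RUN profiles, in which an antibody brings a nuclease to its target in permeable cells and the DNA cut out next to the protein is sequenced. An anti-NRL antibody was used on 250000 retinal cells per experiment from C57BL/6J mice. Age was the only factor, and the labels name neither a mutation nor a treatment in any group. By the labels there were 15 libraries, 3 of P2 retinas and 4 of each later age. Levels are known here for 8, 2 of each age: replicates 1 and 4 of P10, and replicates 3 and 4 of the other ages. Whether replicates are separate animals is not stated in the labels, so p-values measure only the spread between the samples at hand, and that spread may be technical.

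NRL is a basic leucine zipper protein of the Maf family. It sets rod photoreceptor identity: without it, mouse rod precursors become cone-like cells, and together with the homeobox factor CRX it activates many rod genes. Rods in the mouse are born around birth and build their light-sensing outer segments over the following weeks, so the ages compared run from young postmitotic rods to the adult retina. In whole retina, a change in the number of rods and a change in NRL binding per rod cannot be told apart.

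Sequence could be shown for members that lie on an annotated promoter. The results below turn on photoreceptor genes, so sequence is printed for 5 of them, from the RefSeq promoter table of GRCm38.p6. It is the part of the peak within the 250 bases before the RefSeq transcription start site (TSS). Parts of a peak outside these bases are not shown. Capitals mark the TGCTGA core of the Maf recognition element, the AP-1 site TGANTCA, the CRE site TGACGTCA, the CRX-type homeobox site GGATTA or the nuclear receptor site AGGTCA, on either strand. Pde6b and Grk1 encode proteins of rod phototransduction, Samd7 a rod repressor, Crx the homeobox partner of NRL and Ctbp2 the main protein of the photoreceptor synaptic ribbon.
Pde6b, plus strand, chr5:108388192-108388372: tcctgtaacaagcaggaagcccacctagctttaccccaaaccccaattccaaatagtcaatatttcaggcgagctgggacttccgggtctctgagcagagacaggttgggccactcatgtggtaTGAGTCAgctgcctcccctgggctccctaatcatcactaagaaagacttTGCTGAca
Grk1, plus strand, chr8:13404831-13405058: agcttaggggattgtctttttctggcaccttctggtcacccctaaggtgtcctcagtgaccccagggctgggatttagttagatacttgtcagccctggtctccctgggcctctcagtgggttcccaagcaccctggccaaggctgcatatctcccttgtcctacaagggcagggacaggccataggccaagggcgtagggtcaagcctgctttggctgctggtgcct
Samd7, plus strand, chr3:30746093-30746292: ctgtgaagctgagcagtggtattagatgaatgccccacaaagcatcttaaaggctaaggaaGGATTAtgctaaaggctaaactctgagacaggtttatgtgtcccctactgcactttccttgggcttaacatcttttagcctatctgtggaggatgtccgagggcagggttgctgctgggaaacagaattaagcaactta
Crx, minus strand, chr7:15879956-15880153: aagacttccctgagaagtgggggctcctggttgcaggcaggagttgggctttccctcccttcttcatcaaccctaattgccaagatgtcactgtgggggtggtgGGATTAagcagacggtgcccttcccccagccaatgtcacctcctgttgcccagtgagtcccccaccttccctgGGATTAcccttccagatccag
Ctbp2, minus strand, chr7:133015309-133015497: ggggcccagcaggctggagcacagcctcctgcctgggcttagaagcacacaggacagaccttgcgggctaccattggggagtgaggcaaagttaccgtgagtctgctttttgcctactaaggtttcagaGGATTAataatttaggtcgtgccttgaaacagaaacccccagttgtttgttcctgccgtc

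The Pde6b sequence held an AP-1 site, TGAGTCA, at base 125 and the Maf core at base 174, counted from 1 at the 5′ end as printed. Samd7 held the CRX-type site at base 62, Ctbp2 held it at base 130, and Crx held it at bases 105 and 178. The Grk1 sequence held none of the 5 motifs in this window. A match is a description of the letters, not a binding site.

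Over the 505 members that overlapped a promoter window, the Maf core stood in a larger share of windows than over the whole table of peaks, of which members are a part. The interval of the members lay above that of the table, but it contained the share of all promoter windows. Windows that overlap the same member were counted separately, and the intervals take them as independent. The difference from the table was not tested. Of 32851 RefSeq windows of 300 bases, which run from 250 bases before to 50 after a start site, 677 overlapped one of 505 members and 4796 overlapped any peak of the table. The Maf core TGCTGA stood in 21.1% of the windows with a member (Wilson 95% interval 18.2 to 24.4), against 16.1% of windows with any peak (15.1 to 17.2) and 19.5% of all windows (19.1 to 19.9). In windows with a peak of all 4 ages it stood in 18.3% (15.4 to 21.6), and with a peak of P10 and P28 only in 13.7% (11.4 to 16.3). The AP-1 site stood in 4.58% of member windows and 3.94% of windows with any peak, against 7.81% of all windows. The CRE site stood in 4.58% of member windows and 5.11% of windows with any peak, against 1.79% of all windows. GGATTA stood in 6.20% of member windows, 6.55% of windows with any peak and 7.06% of all windows, and AGGTCA in 10.6, 10.8 and 16.3% of them in that order. The GC box GGGCGG stood in 73.4% of member windows, 70.3% of windows with any peak and 35.7% of all windows, and the median GC content was 62.3, 62.0 and 52.7%. Both strands were searched. TGCTGA and TGANTCA can overlap where both occur, and each was counted by itself. The part of base composition in these shares was not tested.

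Members lay mostly on promoters. A distance of at most 1 kb from a TSS, in the authors' annotation, was met by 637 members (76.2%, Wilson 95% interval 73.2 to 79.0), against 78.0% of rows called at all 4 ages (74.7 to 80.9), 71.6% of rows called at P10 and P28 only (68.8 to 74.2) and 56.8% of the whole table (55.7 to 57.8). The members' interval overlapped those of both like groups and lay above that of the whole table. Of the members, 575 overlapped a TSS, 62 lay up to 1 kb from one, 34 at 1 to 3 kb, 130 at 3 to 50 kb and 35 beyond 50 kb. By the authors' place labels, 628 were in promoters, 104 in introns, 72 in distal intergenic sequence, 19 in exons, 6 in 3′ UTRs, 5 just downstream of a gene and 2 in 5′ UTRs. The nearest gene was protein-coding for 772 members, a long noncoding RNA for 43 and a miRNA for 13. The median width was 484 bp, against 488 bp for rows called at all 4 ages, 408 bp for rows called at P10 and P28 only and 322 bp for the table. Several members shared a gene in 17 cases: Mir124a-1hg, host of a neuronal miRNA, carried 4, and each of the others 2.

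Absence from the P2 list did not mean absence of reads at P2. Levels are RPKM, reads per kilobase of peak scaled to each library, rebuilt from the deposited values with each peak's own width. The median member had 2.72 and 2.46 RPKM in the P2 libraries, 3.55 and 6.66 in P4 retinas, 9.12 and 8.23 in P10 retinas, and 5.51 and 5.05 in P28 retinas. Over all peaks of the table the medians were 2.24 and 2.09 in P2 retinas, 2.52 and 4.48 in P4 retinas, 6.29 and 6.09 in P10 retinas, and 3.81 and 3.66 in P28 retinas. Members and the table thus followed the same order of ages, with the highest medians at P10. Averaged over the P2 libraries, the median member had 2.64 RPKM, rows with a P2 peak had 5.72, rows called at all 4 ages had 6.00 and rows called at P10 and P28 only had 1.84. The peak calls that define these groups bear on this order, which is a description. At least as high at P2 as the median row with a P2 peak were 48 members (5.74%), and 144 reached the lower quartile of those rows, 4.04 RPKM. Only 1 member had no read in both P2 libraries, and the median member had 17 reads over both.

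**Figure D1:**
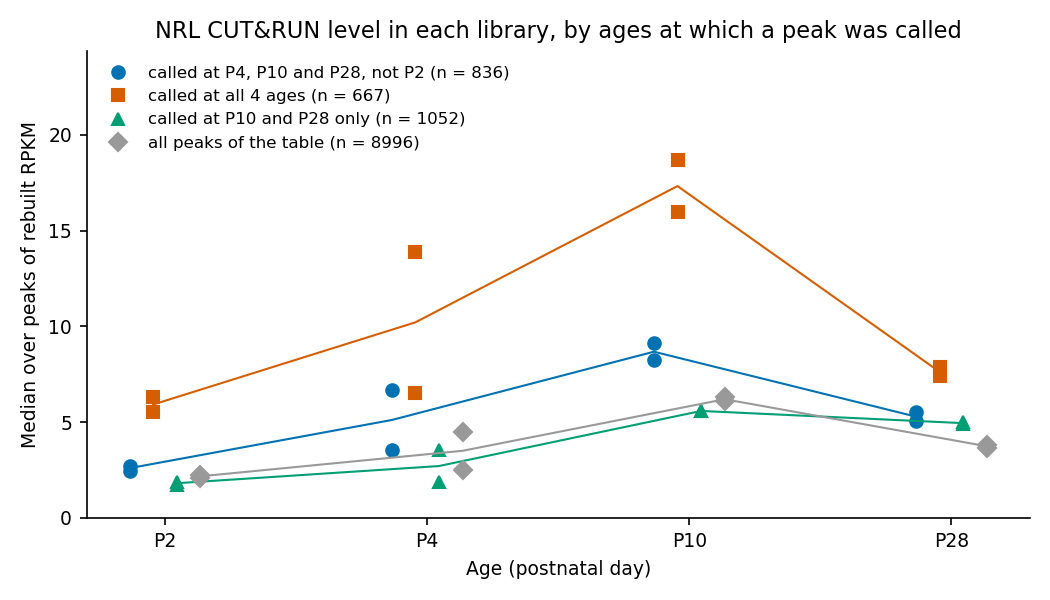
Median rebuilt RPKM (vertical axis) in each library at P2, P4, P10 and P28 (horizontal axis) for the 836 members, the 667 rows called at all 4 ages, the 1052 rows called at P10 and P28 only and all 8996 peaks. Each symbol is 1 library and lines join the means of the 2 libraries of an age. The members' medians were 2.72 and 2.46 in P2 retinas and highest at P10, with 9.12 and 8.23, and the 2 P4 libraries stood apart.

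Both P4 libraries lay above both P2 libraries for 525 members (62.8%), beside 40.1% of all peaks. The same held at P10 for 791 members (94.6%), beside 79.2% of all peaks, and at P28 for 677 members (81.0%), beside 52.5%. Nothing can be read from these shares, since the rule used that contrast. Members took 12.4 and 11.9% of each P2 library's reads in peaks, 14.8 and 14.6% in P4 retinas, 16.7 and 16.4% in P10 retinas, and 17.5 and 17.5% in P28 retinas.

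At the border of the rule, the peaks of Cdca3, Kpnb1 and Brca1 were members although a P2 peak lay 371, 381 and 477 bp away. Brca1, a DNA repair gene, had 11.8 and 5.65 RPKM in P2 retinas at its promoter, above the members' upper quartiles of 3.72 and 3.45 in those libraries. The rows of Aldh9a1, Ostc and Pelp1 were left out by P2 overlaps of 107, 109 and 110 bp, and Ostc had 20.3 and 29.0 RPKM in P2 retinas. The members held by the smallest overlap with a later peak were those of Lamp2, with 94 bp at P28, and Spaca6, with 95 bp at P4. Ranked by the authors' own signal within each list, the median member stood at percentile 50.0 of the P4 list, 73.2 of the P10 list and 59.6 of the P28 list. Rows called at all 4 ages stood at percentiles 80.8, 89.0 and 80.2 of the same lists.

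The libraries limit what follows. Reads inside peaks ranged from 49430 to 227692 per library and reads inside members from 5898 to 37253, with 6 to 33 reads in the median member. Pearson's r between the log2 levels of replicates, taken across members and so across peaks that share their libraries, was lowest for P2 (0.447), followed by P4 (0.801), P28 (0.820) and P10 (0.935). P4 replicate 4 stood above P4 replicate 3 by a median of 0.76 (log2) over members. Replicates of every age differed beyond Poisson noise, with chi-square divided by its degrees of freedom from 1.13 to 1.40. Reads in peaks, as a share of a library's scale, were 0.986 and 0.940% in P2 retinas, 1.09 and 2.15% in P4 retinas, 3.08 and 2.84% in P10 retinas, and 1.52 and 1.51% in P28 retinas. This share and the members' levels were both highest at P10 and lowest at P2, and its part in the differences was not tested.

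The comparison of P10 with P4 asked how binding already present at P4 changed as rods matured. By limma on log2(RPKM + 1) over all 8996 peaks, at a Benjamini-Hochberg adjusted p under 0.05, 95 members (11.4%) were called higher at P10, beside 15.6% of all peaks. No member was called lower by limma, also at an unadjusted p under 0.05 and by limma-voom, beside 1.51% of all peaks. The rule bears on this 0, since it asks for a call at both ages, and rows called at all 4 ages and at P10 and P28 only had 0 lower as well. The median difference was 0.72 (log2, lower and upper quartiles 0.37 and 1.17), against 0.73 for all peaks. After centring each library on its median, 27 members stayed above the threshold as higher and 1 was called lower. Beyond 1 kb from a TSS the members' median difference was 1.26 and 61 of 199 (30.7%) were called higher, whereas within 1 kb it was 0.61 and 34 of 637 (5.34%) were. Over all peaks the medians were 0.98 beyond 1 kb and 0.62 within 1 kb, and 26.0 and 7.72% were called higher. The difference between distal and promoter members was not tested. The count moved with each of the P4 and P10 libraries: without P10 replicate 1 a single member was called higher, without P10 replicate 4 there were 10, without P4 replicate 3 there were 18, and without P4 replicate 4 there were 321. Without a P2 or a P28 library it stayed between 86 and 100.

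**Figure D2:**
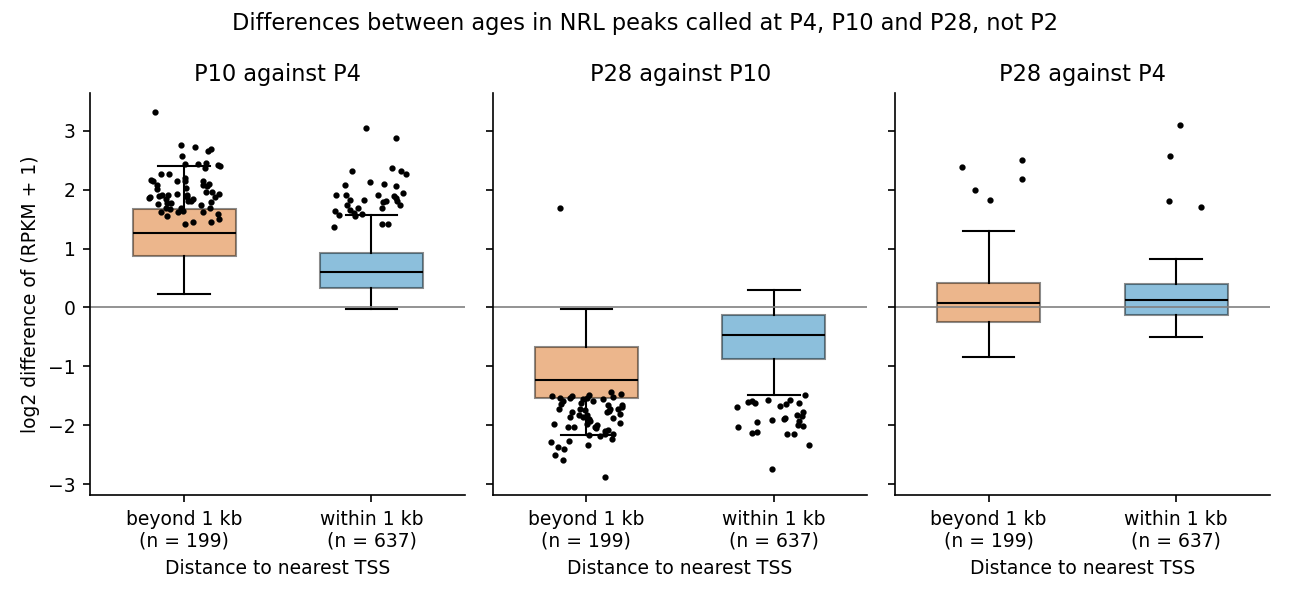
Log2 difference of (RPKM + 1) between ages (vertical axis) for members beyond 1 kb (n = 199, left) and within 1 kb of a TSS (n = 637, right), in 3 panels, P10 against P4, P28 against P10 and P28 against P4. Boxes show quartiles and median, whiskers the 5th and 95th percentiles, and dots the members with an adjusted p under 0.05. The medians were 1.26 and 0.61 for P10 against P4, -1.23 and -0.47 for P28 against P10, and 0.08 and 0.13 for P28 against P4.

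Rod phototransduction genes had members at 6 of 22 genes, Aipl1, Gnat1, Grk1, Pde6a, Pde6b and Unc119, with 8 peaks within 50 kb of the TSS. Over all protein-coding genes, 735 of 21900 (3.36%) had a member. The list had been drawn up with earlier results of these data known, so its share is a description. Of the 8 peaks, 7 were called higher at P10 than at P4, with a median difference of 2.07 (log2) over the 8, and none lower. Over all members 11.4% were called higher (30.7% beyond 1 kb of a TSS and 5.34% within), with a median of 0.72. No member at all was called lower, so the lack of lower peaks says nothing about this list. Unc119 also had a peak in the P2 list at another site, and the other 5 genes had none.

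The Gnat1 promoter peak (chr9:107679577-107680076), at the gene of the alpha subunit of rod transducin, had 2.77 and 0.76 RPKM in P2 retinas, 4.32 and 11.7 in P4 retinas, 72.8 and 48.2 in P10 retinas, and 61.6 and 78.6 in P28 retinas. It was 2.87 ± 0.58 higher at P10 than at P4 (log2 ± SE, limma adjusted p = 0.00256) and 3.10 ± 0.58 higher at P28 than at P4 (adjusted p = 0.00131). At Gnat1 both later ages lay above P4, and P28 and P10 overlapped. At P2 the peak rested on 11 and 2 reads.

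Pde6a and Pde6b encode the catalytic subunits of the rod phosphodiesterase, which breaks down cyclic GMP in light. The Pde6b promoter peak, whose sequence with the Maf core and AP-1 site is printed above, had 1.77 and 2.14 RPKM in P2 retinas, 7.87 and 16.9 in P4 retinas, 59.9 and 58.7 in P10 retinas, and 26.2 and 30.4 in P28 retinas. It rose by 2.26 ± 0.54 at P10 over P4 (log2, limma adjusted p = 0.00758), while P28 differed from P4 by 1.21 ± 0.54 (adjusted p = 0.170). A further Pde6b peak (chr5:108431286-108431590), labelled 3′ UTR and 909 bp from an annotated start, had 4 and 0 reads at P2 and, in RPKM, 7.49 and 10.3 in P4 retinas, 46.0 and 35.6 in P10 retinas, and 16.8 and 11.8 in P28 retinas. The intronic Pde6a peak had 1.65 and 2.91 RPKM in P2 retinas, 2.22 and 6.25 in P4 retinas, 27.9 and 17.5 in P10 retinas, and 13.6 and 24.4 in P28 retinas, and was higher at P28 than at P4 by 1.99 ± 0.57 (limma adjusted p = 0.0251). At both genes the P10 libraries stood above the P4 libraries. A further member assigned to Pde6a, 56371 bp from its TSS and in an intron of Ppargc1b, was not counted with the list because of that distance. It had 5.54 and 13.3 RPKM in P4 retinas, 51.5 and 33.8 in P10 retinas, and 5.79 and 12.8 in P28 retinas. It was higher at P10 than at P4 by 2.14 ± 0.57 (log2, limma adjusted p = 0.0133) and lower at P28 than at P10 by -2.15 ± 0.57 (adjusted p = 0.0103), and its P28 and P4 libraries overlapped.

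Grk1, the gene of a kinase that shuts off the light response, carried a promoter peak and a peak in its first intron. The promoter peak had 1.07 and 0.54 RPKM in P2 retinas, 2.87 and 3.63 in P4 retinas, 18.7 and 14.8 in P10 retinas, and 12.3 and 13.4 in P28 retinas. It rose by 2.06 ± 0.51 at P10 over P4 (log2, limma adjusted p = 0.00864), and was higher at P28 than at P4 by 1.71 ± 0.51 (adjusted p = 0.0319). The intronic peak was the 1 of the 8 that missed the threshold for P10 against P4, with a difference of 1.57 ± 0.55 (limma adjusted p = 0.0514). Grk1 is also on the cone list, where it was the only one of 16 genes with a member within 50 kb of the TSS, and mouse cones use the same kinase. Unc119, a chaperone that carries lipid-bearing transducin to the outer segment, had 3.32 and 4.52 RPKM in P2 retinas, 11.1 and 27.9 in P4 retinas, 79.4 and 54.6 in P10 retinas, and 21.3 and 22.5 in P28 retinas. Aipl1, a chaperone of the rod phosphodiesterase, had the lowest level of the list at P10, with 9.98 and 8.07 RPKM.

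Among the 8 peaks, 3 were called higher at P28 than at P4 (Gnat1, Pde6a and the Grk1 promoter), and the median difference of the 8 was 0.92. In that comparison 3.48% of all peaks and 1.08% of members were called higher. Unc119 was the 1 called lower at P28 than at P10 (-1.55 ± 0.56, limma adjusted p = 0.0478), and the median of the 8 for that step was -0.98. For that step 20.7% of all peaks and 10.0% of members were called lower, so nothing is read from this 1 call. The P10 against P4 calls depended on single libraries. Without P10 replicate 1 the 7 adjusted p-values ran from 0.0672 to 0.256, 2 of the 7 still passed without P10 replicate 4, and 3 of the 7 without P4 replicate 3. Of the 3 calls for P28 against P4, that of Gnat1 passed with every library left out in turn. Grk1 missed the threshold without either P10 or either P28 library, and Pde6a without P28 replicate 4 or P4 replicate 3 (adjusted p 0.0554 to 0.215). The Unc119 call was lost without any 1 of 6 libraries, those of P2, P10 and P28. After centring on library medians, 4 of the 7 and all 3 passed, and Unc119 did not for either step. With a pseudocount of 0.1 none of the 7 passed, and with the values as deposited 1 did.

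**Figure D3:**
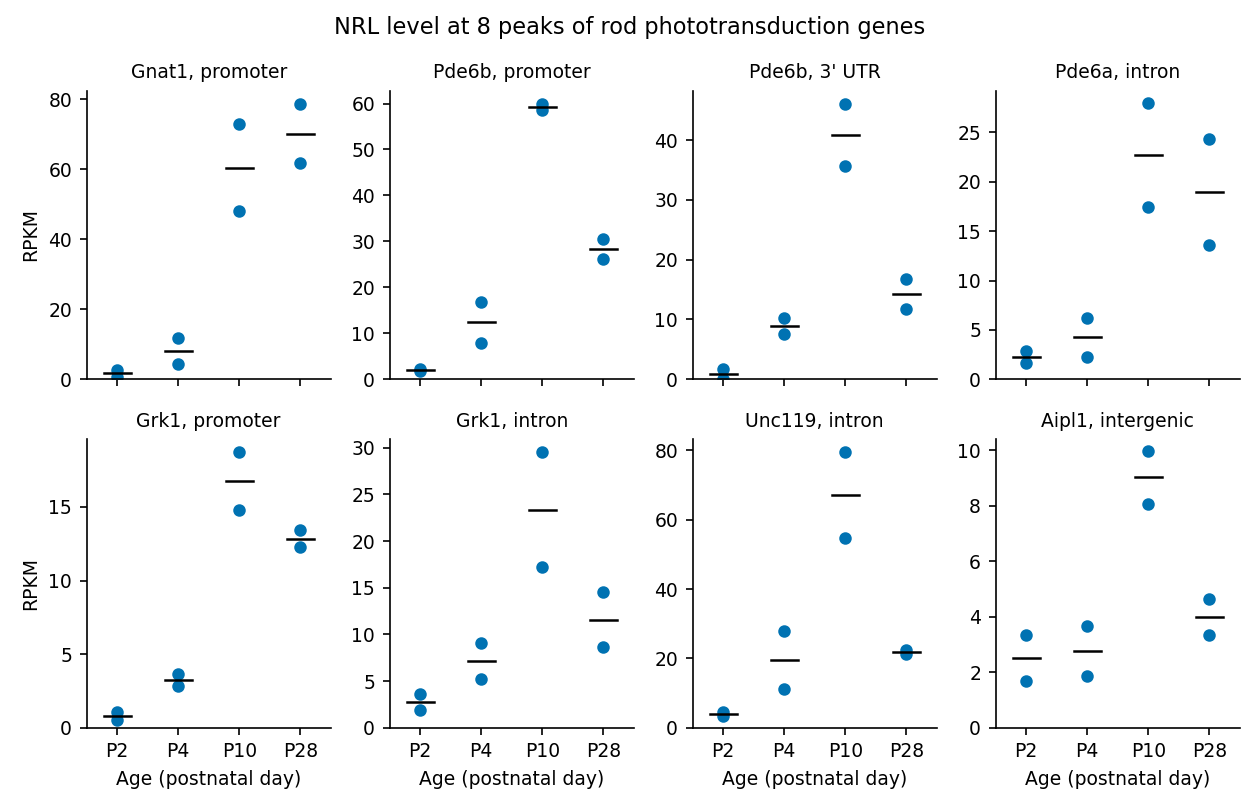
Rebuilt RPKM (vertical axis, its own scale in each panel) at P2, P4, P10 and P28 for the 8 peaks of rod phototransduction genes. Points are single libraries and bars the mean of 2. In each panel both P10 libraries lie above both P4 libraries, and Gnat1 has 72.8 and 48.2 in P10 retinas.

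Photoreceptor transcription factor genes had members at 6 of 20, Ankrd33, Crx, Esrra, Esrrb, Prdm1 and Samd7. The Esrrb peak (chr12:86507673-86508054), in an intron of this nuclear receptor gene, had 5.93 and 6.97 RPKM in P2 retinas, a mean of 22.4 ± 14.8 (SD, n = 2) in P4 retinas with the higher library at 32.9, 158 and 115 in P10 retinas, and 105 and 133 in P28 retinas. It was the member with the highest mean level from P4 on, and both later ages stood above P4. Its difference was 2.70 ± 0.56 for P10 against P4 (log2, limma adjusted p = 0.00310) and 2.51 ± 0.56 for P28 against P4 (adjusted p = 0.00557). Samd7 encodes a protein that works with Polycomb complexes to keep non-rod genes silent. Its promoter peak (chr3:30746093-30746436) had 4.76 and 8.30 RPKM in P2 retinas, 14.0 and 36.9 in P4 retinas, 97.6 and 70.0 in P10 retinas, and 12.2 and 10.9 in P28 retinas. The P28 libraries lay below both P4 and both P10 libraries. Samd7 was higher at P10 than at P4 by 1.81 ± 0.57 (limma adjusted p = 0.0314) and lower at P28 than at P10, by -2.74 ± 0.57 (adjusted p = 0.00196).

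The other members at transcription factor genes missed the limma threshold between P4, P10 and P28. Crx had 4.57 and 5.02 RPKM in P2 retinas at its promoter, 9.22 and 12.7 in P4 retinas, 28.6 and 15.6 in P10 retinas, and 10.7 and 9.73 in P28 retinas. Ankrd33, a repressor of CRX activity, had 2.75 and 7.74 RPKM in P4 retinas, 14.0 and 10.6 in P10 retinas, and 3.02 and 4.62 in P28 retinas, and limma-voom called it higher at P10 than at P4 (adjusted p = 0.0473) and lower at P28 than at P10 (0.0163). With only the libraries of P28 and P10, Ankrd33, Crx and Esrra were called lower at P28 (limma adjusted p 0.0106, 0.0409 and 0.0304). Esrra, a nuclear receptor of energy metabolism, had 7.74 and 8.38 RPKM in P4 retinas, 15.7 and 11.0 in P10 retinas, and 6.64 and 4.80 in P28 retinas. Prdm1, which holds back bipolar fate in rod precursors, stayed between 2.07 and 4.44 RPKM in the 8 libraries. Crx and Samd7 also had a P2 peak at another site. Without P10 replicate 1 neither Esrrb nor Samd7 passed for P10 against P4 (adjusted p 0.0796 and 0.260), and Samd7 missed the threshold for P28 against P10 (0.0550). Samd7 for P10 against P4 was also lost without P10 replicate 4 (0.123), without P4 replicate 3 (0.159) and after centring (0.118), and Esrrb for P28 against P4 without P28 replicate 4 (0.0546).

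In the photoreceptor synapse list, 2 of 22 genes had a member. Ctbp2, whose product in photoreceptors is the ribbon protein RIBEYE, had 3.17 and 4.05 RPKM in P2 retinas, 4.42 and 23.8 in P4 retinas, 43.9 and 42.7 in P10 retinas, and 10.5 and 8.23 in P28 retinas (chr7:133015309-133015825). It was higher at P10 than at P4 by 1.94 ± 0.61 (log2, limma adjusted p = 0.0320) and lower at P28 than at P10 by -2.11 ± 0.61 (adjusted p = 0.0168). The P4 libraries lay far apart at this peak. Without P10 replicate 1, P10 replicate 4 or P4 replicate 3 the first call was lost (adjusted p 0.181, 0.154 and 0.256), as after centring (0.137). The second was lost without P10 replicate 1, P10 replicate 4 or P28 replicate 4 (0.119, 0.0975 and 0.0831). Cacna2d4, an auxiliary subunit of the synaptic calcium channel, had 18.5 and 23.1 RPKM in P10 retinas, against 4.60 and 9.69 in P4 retinas, a difference of 1.49 ± 0.54 for P10 against P4 (limma adjusted p = 0.0557).

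Cilium genes had members at 6 of 28, and 2 of their 6 peaks were called higher at P10 than at P4. Both called peaks lay beyond 1 kb from a TSS, where 30.7% of all members were called higher, beside 11.4% of members at any distance. The median difference of the 6 peaks was 0.45 (log2), beside 0.72 for all members. The rod outer segment is a modified cilium. Arl3, a small GTPase that releases lipid-bearing cargo in the cilium, had 4.06 and 4.09 RPKM in P2 retinas, 5.01 and 10.7 in P4 retinas, 45.2 and 53.2 in P10 retinas, and 17.8 and 21.7 in P28 retinas in its intron, 2.58 ± 0.54 higher at P10 than at P4 (log2, limma adjusted p = 0.00328). The peak near Bbs7, a subunit of the BBSome that sorts ciliary membrane proteins, had 4.52 and 19.9 RPKM in P4 retinas, 43.9 and 36.3 in P10 retinas, and 10.5 and 9.01 in P28 retinas. It was higher at P10 than at P4 by 1.93 ± 0.59 (adjusted p = 0.0272) and lower at P28 than at P10 by -1.93 ± 0.59 (adjusted p = 0.0220). The promoter peaks of Bbs2, Cep290, Ift140 and Rpgrip1l passed no test and none reached 10 RPKM in a library. Without P10 replicate 1 neither Arl3 (0.0509) nor Bbs7 (0.199) passed for P10 against P4, without P10 replicate 4 neither did (0.0569 and 0.120), and without P4 replicate 3 or after centring Bbs7 did not (0.191 and 0.105). The lower Bbs7 level at P28 was lost without any 1 P10 or P28 library (0.0670 to 0.172) and after centring (0.0526).

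In the outer segment and retinoid list, 3 of 14 genes had a member. The intronic peak of Rp1, a protein of the outer segment axoneme, had 3.00 and 3.07 RPKM in P4 retinas, 9.83 and 9.66 in P10 retinas, and 6.99 and 5.99 in P28 retinas, 1.41 ± 0.48 higher at P10 than at P4 (log2, limma adjusted p = 0.0447). That call was lost without either P10 library or P4 replicate 3 (0.132 to 0.224) and after centring (0.337). Abca4, the retinoid flippase of the discs, differed by 1.43 ± 0.51 for P10 against P4 (adjusted p = 0.0524), and Prcd, a small disc protein, by 0.30 ± 0.47 (adjusted p = 0.651). In the glycolysis list only Ldha of 26 genes had members. Its peak 13613 bp before the TSS had 5.55 and 7.08 RPKM in P4 retinas, 26.2 and 19.3 in P10 retinas, and 13.1 and 10.0 in P28 retinas, and was 1.69 ± 0.53 higher at P10 than at P4 (adjusted p = 0.0306). This too was lost without either P10 library or P4 replicate 3 (0.0851 to 0.259) and after centring (0.148). The other Ldha member, 1684 bp before the TSS, had 3.30 and 12.8 RPKM in P4 retinas, 19.3 and 18.2 in P10 retinas, and 5.26 and 7.41 in P28 retinas, and missed the limma threshold for P10 against P4 (1.36 ± 0.57, adjusted p = 0.0937) and for P28 against P10 (-1.44 ± 0.57, adjusted p = 0.0684).

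In the ribosomal protein, mitochondrial, cell cycle and bZIP factor lists, all members missed the limma threshold in all 3 comparisons. These were 5 of 32 ribosomal protein genes (Rpl18, Rpl27, Rpl37, Rps9 and Rps18), 3 of 24 mitochondrial genes (Atp5b, Ndufv1 and Timm50), 3 of 30 cell cycle genes (Ccne1, Cdk4 and Mcm2) and 2 of 34 bZIP factor genes (Atf2 and Nfe2l1). For P10 against P4 their differences ran from 0.15 to 0.66, 0.30 to 0.80, 0.69 to 1.18 and 0.44 to 0.87 (log2) in that order, with limma adjusted p from 0.112 to 0.819. At an unadjusted p under 0.05 only 1 of these peaks passed for P10 against P4, that of Mcm2, and 0 were called by limma-voom. Most of these peaks lay within 1 kb of a TSS. There, 5.34% of all members were called higher at P10 than at P4, and 4.24% lower at P28 than at P10. With so few peaks, nothing can be read from the lack of calls. Mcm2 passed for P10 against P4 with a pseudocount of 5 (adjusted p = 0.0472) and without P4 replicate 4 (0.0232), and for P28 against P10 with only the libraries of these ages (0.0415). The lists hold chosen genes only. Among members not counted with them, those of Atp5k and Atp5l were called higher at P10 than at P4 (1.97 and 1.92, limma adjusted p 0.0184 and 0.0234). Those of Mrpl41 and Creb3l1 were called lower at P28 than at P10 (-1.81 and -1.62, limma adjusted p 0.0371 and 0.0304). After centring on library medians each of these calls was lost (limma adjusted p 0.0830, 0.111, 0.112 and 0.0833 in the order named). Each was also lost in some fits that left out a library. These members were chosen for mention after their values were seen. Dll1, a Notch ligand, was the 1 of 23 progenitor genes with a member. The list of 25 chromatin regulators and the marker lists of bipolar cells, of amacrine, horizontal and ganglion cells, of Müller glia, of pigment epithelium and of microglia with vessels had no member within 50 kb. Of these, the Müller glia and the microglia and vessel lists had no peak in the table at all. Over all protein-coding genes 3.36% had a member, so nothing can be read from lists this short without one. Dpf3, a chromatin remodelling gene with a member described below, is not on the chromatin list.

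The comparison of P28 with P10 gave 84 members (10.0%) called lower by limma, beside 20.7% of all peaks, and 1 called higher, beside 1.29%. The median difference was -0.59 (log2), against -0.69 for all peaks, -0.93 for rows called at all 4 ages and -0.19 for rows called at P10 and P28 only. Beyond 1 kb it was -1.23 with 57 of 199 members (28.6%) called lower, and within 1 kb -0.47 with 27 of 637 (4.24%). Over all peaks the medians were -1.16 beyond 1 kb and -0.42 within 1 kb, and 36.0 and 8.95% were called lower, so the split by distance was also that of the whole table. After centring on library medians 36 were called lower and 4 higher. Without P10 replicate 1 the count of lower members was 3, without P10 replicate 4 it was 11, without P28 replicate 3 or 4 it was 20 or 24, and without P4 replicate 3 or 4 it was 206 or 209. The last 2 do not change the values compared, only the spread shared by all ages.

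Besides Samd7, the largest falls among members of at least median level lay far from promoters. The intergenic peak 9974 bp before Otud7b, a deubiquitinase gene (chr3:96094156-96094553), had 4.11 and 3.35 RPKM in P2 retinas, 6.70 and 14.4 in P4 retinas, 39.6 and 37.6 in P10 retinas, and 3.89 and 4.94 in P28 retinas. It fell by 2.88 ± 0.54 at P28 below P10 (log2, limma adjusted p = 0.000971), and kept an adjusted p under 0.05 whichever library was left out. Its P28 and P2 values overlapped. The peaks assigned to Ankrd33b, Fzd8 and Bhlha15, between 27560 and 274168 bp before the TSS, had differences of -2.58, -2.51 and -2.40 (adjusted p 0.00229, 0.00250 and 0.00608), and each missed the threshold without P10 replicate 1 (0.0674, 0.0621 and 0.0685), Bhlha15 also without P28 replicate 4 (0.0748). The 1 member called higher at P28 than at P10 lay 54762 bp before Smim15, with 21.0 and 24.8 RPKM in P28 retinas, against 9.15 and 4.43 in P10 retinas (1.68 ± 0.55, adjusted p = 0.0314). Without any 1 of the P10 or P28 libraries that call was lost (0.0907 to 0.319).

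**Figure D4:**
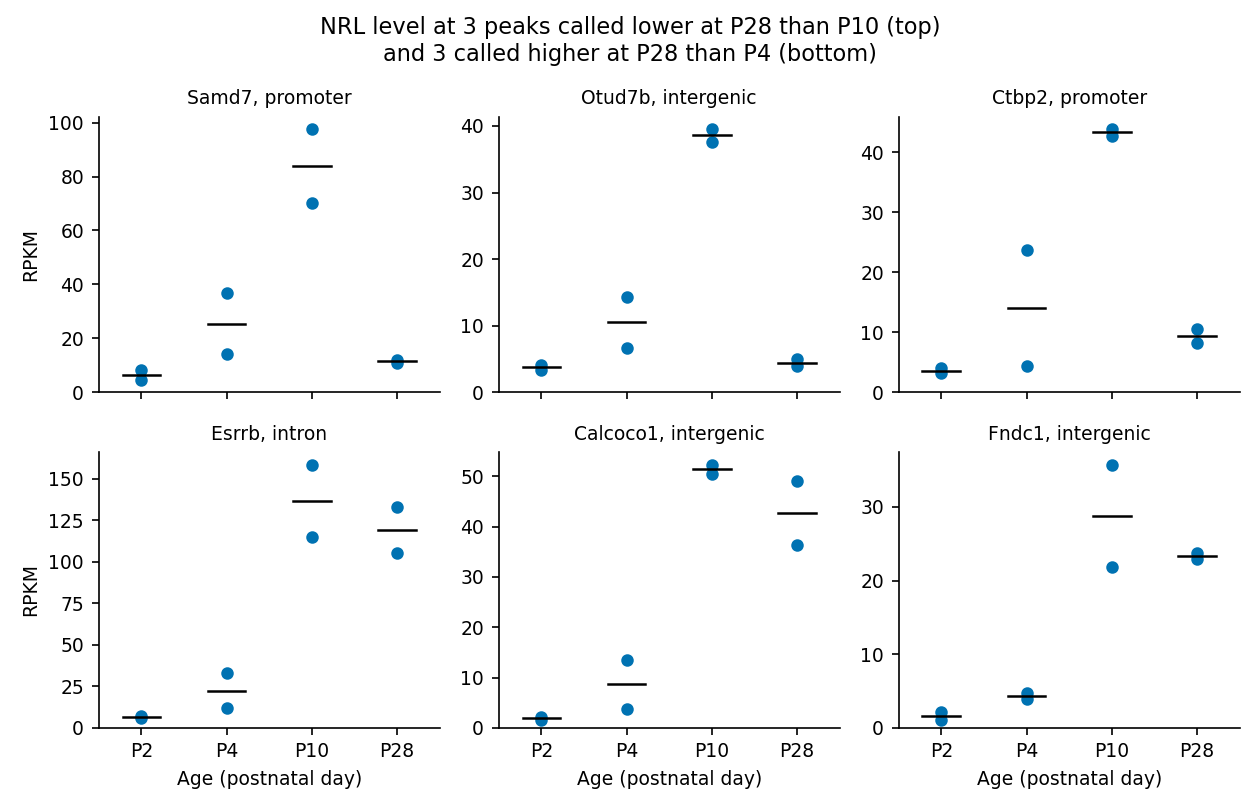
Rebuilt RPKM (vertical axis, its own scale in each panel) at P2, P4, P10 and P28 for 3 peaks called lower at P28 than at P10 (Samd7, Otud7b and Ctbp2, top) and 3 called higher at P28 than at P4 (Esrrb, Calcoco1 and Fndc1, bottom). Points are single libraries and bars the mean of 2. The top row has P28 values of 12.2 or less, and the bottom row keeps 22.9 or more at P28.

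Limma called 9 members (1.08%) higher at P28, beside 3.48% of all peaks, and 0 lower, beside 6.02%, in the comparison of P28 with P4. Members had to be called at both ages, so these shares are set in part by the rule. At an unadjusted p under 0.05, 5 members were lower, and limma-voom called 1 lower. Among the 9 were the peaks of Gnat1, Pde6a, the Grk1 promoter, Esrrb, Calcoco1, Fndc1, Glb1l2 and Myoc. Those of Glb1l2 and Myoc passed narrowly (limma adjusted p 0.0495 and 0.0474), and each was lost in some fits that left out a library. The peak 15967 bp from Calcoco1 had 3.80 and 13.4 RPKM in P4 retinas, 50.5 and 52.3 in P10 retinas, and 36.4 and 49.0 in P28 retinas, a difference of 2.38 ± 0.57 for P28 against P4 (log2, limma adjusted p = 0.00940). The peak 126563 bp from Fndc1 had 3.95 and 4.76 RPKM in P4 retinas, 35.7 and 21.9 in P10 retinas, and 23.8 and 22.9 in P28 retinas, a difference of 2.19 ± 0.53 (adjusted p = 0.0105). Without P28 replicate 4 neither passed (0.0722 and 0.0540), nor did Fndc1 without P28 replicate 3 (0.0685). Over all members the median difference was 0.12, against 0.10 for all peaks, -0.22 for rows called at all 4 ages and 0.70 for rows called at P10 and P28 only, which were chosen for having no P4 peak. Without P4 replicate 3 the members' median turned to -0.22, with 11 members called lower. Without P4 replicate 4, 23 were called higher, without P28 replicate 3 there were 5 and without P28 replicate 4 there were 2. After centring, 14 were higher and 6 lower.

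Of the 836 members, 698 passed none of the 3 comparisons. By the mean of its libraries, a member was highest at P10 in 693 cases (82.9%), at P28 in 117 (14.0%), at P4 in 25 and at P2 in 1. Of those highest at P28, 107 lay within 1 kb of a TSS and 10 beyond. Over all peaks, 70.4% of rows were highest at P10 and 18.2% were highest at P28, while P28 was highest in 28 of the 667 rows called at all 4 ages and in 38.0% of rows called at P10 and P28 only.

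Apart from Esrrb and Gnat1, several of the highest members were distal peaks. The intronic Dpf3 peak, at the gene of a subunit of the BAF chromatin remodelling complex, had 9 reads over both P2 libraries and, in RPKM, 9.18 and 29.7 in P4 retinas, 122 and 110 in P10 retinas, and 47.1 and 42.4 in P28 retinas, 2.73 ± 0.57 higher at P10 than at P4 (log2, limma adjusted p = 0.00317; 0.0627 without P10 replicate 1). The peak assigned to AA413626, in an intron of Thoc5, had the largest rise among members of at least median level, with 2.87 and 13.4 RPKM in P4 retinas, 80.3 and 67.2 in P10 retinas, and 12.5 and 23.8 in P28 retinas. Its difference was 3.32 ± 0.61 for P10 against P4 (adjusted p = 0.00150), and it was the only one of the 95 called members to pass in all 8 fits that left out a library. The peak 19761 bp before Optn, the gene of an autophagy receptor, stood at 10.3 and 22.1 RPKM already at P2, and at 79.0 and 98.3 in P28 retinas. The Optn peak was called higher at P10 than at P4 (1.67 ± 0.57, limma adjusted p = 0.0447). That call was lost after centring (0.199), with the values as deposited (0.958) and in some fits that left out a library. The highest of the 4 members at Mir124a-1hg, 13458 bp before the TSS, had 9.69 and 16.4 RPKM in P2 retinas, 21.0 and 44.3 in P4 retinas, 94.0 and 63.4 in P10 retinas, and 46.9 and 62.2 in P28 retinas. With all libraries it missed the limma threshold between the later ages. Without P4 replicate 4 its difference for P10 against P4 was 1.83 (log2). Another of the 4 was called higher at P10 than at P4 (2.14, limma adjusted p = 0.00989). A further one was called lower at P28 than at P10 (-1.64, limma adjusted p = 0.0416), but not after centring (0.0889). Each of these calls was lost in some fits that left out a library.

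One member lay beside a cluster of miRNAs made in photoreceptors, and it was chosen for mention after its values were seen. The authors' annotation places it in an exon (chr6:30174797-30175467), 5059 bp from the hairpin of Mir183, 5245 bp from Mir96 and 8804 bp from Mir182. It had 5.82 and 4.25 RPKM in P2 retinas, 10.8 and 21.1 in P4 retinas, 28.9 and 20.6 in P10 retinas, and 8.31 and 8.54 in P28 retinas. The P10 and P4 libraries overlapped, with a difference of 0.66 ± 0.54 (log2, limma adjusted p = 0.381), and P28 lay below both but missed the threshold against P10 (-1.43 ± 0.54, adjusted p = 0.0589). The mature sequences from RefSeq (GRCm38.p6) are given with the seed, bases 2 to 8, in capitals. The seeds of miR-182-5p and miR-96-5p share their first 6 bases, and those of miR-96-5p and miR-183-5p share the last 6.
mmu-miR-182-5p: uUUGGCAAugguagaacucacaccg
mmu-miR-96-5p: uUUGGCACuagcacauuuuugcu
mmu-miR-183-5p: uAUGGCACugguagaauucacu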

How the data were processed

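Each library of the deposited quantitation table gives a value for 8996 peaks. The header names no unit. The values are RPKM, as the numbers show: every library has its own scale, and multiplying the deposited values by it and by a peak width gave reads that are whole within 0.001 in 100% of cases. In each further column the deposited values had been divided by the width of a row 39 places earlier than in the column before, so RPKM was rebuilt with each peak's own width. Of the widths used as divisors, 39 belonged to none of the 8996 peaks and were solved as widths that gave whole reads. For values divided by these 39, whole reads are therefore no separate check. The sources used here give neither how the scales were set nor which replicates stand behind each peak list. Without roles, MACS2 2.2.5, bedtools 2.29.0, Picard 2.20.8, SAMtools 1.9, Bowtie2 2.3.5.1, Trimmomatic 0.38 and the build GRCm38.p6 are named in the submitters' processing notes. The signal of each listed peak and its score are the authors' own. Ranks within a list come from the signal, and the score was not used, and place and distance to the TSS are the authors' annotation. All 836 members matched the RefSeq gene table.

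Log2(RPKM + 1) was tested with limma 3.58.1 in R 4.3.3 (trend, robust), with the 8 libraries in 1 fit, age as factor and 4 residual degrees of freedom, no filter on low values, and Benjamini-Hochberg adjustment over all peaks. The fit was tested on simulated data. On the log2(RPKM + 1) scale, low peaks show less than their full change. The plan was written for 15 libraries, and the other 7 were not analysed here. Replicate numbers were not used as pairs: deviations of same-numbered libraries correlated by 0.029 to 0.085. The ages compared share libraries, so their differences are given side by side. Named members were the 8 with the highest mean level from P4 on, the 5 highest and 5 lowest called differences of each comparison at or above the median level, members of the gene lists within 50 kb, members at the border of the rule and those with the fewest and most P2 reads. Glb1l2, Myoc, Atp5k, Atp5l, Mrpl41, Creb3l1, the distal Pde6a member and the further members at Mir124a-1hg were added after their values were seen. Some genes are not reported here, and the gene list counts leave them out. The members, lists and motifs were chosen with earlier results of these data known. Intervals on shares are Wilson intervals that cover counting error only. Python 3.11.15, pandas 2.3.3, SciPy 1.17.1, NumPy 2.4.6 and Matplotlib 3.10.9 were used. Positions count from 1 in GRCm38.p6.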

Additional observations from a re-analysis of the deposited data

How the results depend on the processing

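The number of calls depended on the settings. Of 43 named calls, none changed sign, but 26 lost significance with the values as deposited, 35 with a pseudocount of 0.1, 33 with the replicate block, 15 after centring, 10 with only the libraries of the 2 ages and between 0 and 35 with 1 library left out, the most without P10 replicate 1. The cause of each move was not tested. For P10 against P4 the 95 members called higher became 40 with the values as deposited, 0 with a pseudocount of 0.1, 180 with a pseudocount of 5, 185 with limma-voom, 50 with only the libraries of the 2 ages and 27 (1 lower) after centring. For P28 against P10 the 84 called lower became 37, 12, 172, 153, 265 and 36 in the same order, and the 1 called higher became 0 with a pseudocount of 0.1 and 4 after centring. For P28 against P4 the 9 called higher became 1, 3, 12, 13 (1 lower), 5 and 14 (6 lower). Leaving out each library in turn gave from 1 to 321 higher for P10 against P4, from 3 to 209 lower and 0 to 1 higher for P28 against P10, and from 2 to 23 higher and 0 to 11 lower for P28 against P4. A filter at a mean of 2 RPKM, which 834 members passed, gave 101, 88 and 9.

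The median difference of members became 0.011 for P10 against P4 and 0.0076 for P28 against P10 after centring, and -0.38 for P28 against P10 with a pseudocount of 5. With the replicate block, which the data do not show to be a pairing, 3 members were called higher for P10 against P4, 2 lower and 0 higher for P28 against P10, and 9 higher for P28 against P4. P10 shares only number 4 with the other ages, so the block there rests on few libraries. Presence limited to the stronger part of each list, by the median signal, left 305 members with 63.3% within 1 kb of a TSS, a cover of at least 50% of the row left 574 with 74.6%, and a P2 peak at least 1 kb away left 832 with 76.2%. At P2 the median member had 10 and 6 reads, so differences of a few reads were not detectable at this depth.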
